A study of Rattus norvegicus with 14 samples.

Results

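Eph receptors are receptor tyrosine kinases, and their ligands, the ephrins, are themselves bound to the membrane of the neighbouring cell, so that contact can signal into both cells. A-type ephrins are held by a lipid anchor and bind mainly EphA receptors, whereas B-type ephrins span the membrane and bind mainly EphB receptors. EphA4 is unusual in binding ligands of both types. In the developing brain these proteins guide axons, and in the adult hippocampus of mice they have been studied for their part in dendritic spine shape and synaptic plasticity.

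The set described here holds 8 genes: the EphA receptors Epha4, Epha5 and Epha7, the EphB receptors Ephb1 and Ephb2, and the B-type ephrins Efnb1, Efnb2 and Efnb3. They were followed through every probe set that the platform annotation assigns to a single one of them, a probe set being a group of short oligonucleotides that together measure a stretch of transcript. Epha4, Epha5, Epha7 and Efnb1 were covered by 7 such probe sets among the 15923 of the array. Ephb1, Ephb2, Efnb2 and Efnb3 had none by this rule and are not analysed here.

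Total RNA came from microdissected hippocampal CA3 of male Long-Evans rats aged 3 to 4 months, 1 array per animal. The learning group (learning activated, n = 7) swam 8 trials in an unfamiliar water maze with orienting spatial cues and a visible platform that kept its place. The control group (n = 7) swam the same number of trials there towards a visible platform that changed place, without informative cues. Rats of both groups had been through standard water maze training 2 to 3 weeks before, had a 90 s probe trial without platform 1 h after the last trial, and were killed immediately afterwards, so no untrained or resting animals enter the comparison. Cues and platform movement differed together between the groups and cannot be told apart.

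All values are log2 expression levels. Of the 9520 probe sets above a brightness cutoff (a mean log2 level of 3.88), 319, or 3.35%, passed the threshold of an adjusted p under 0.05 in limma, 243 of them higher in the learning group. Dissected CA3 is bulk tissue. Of the CA3 markers 5 were above the cutoff, and they averaged 7.84 ± 0.06 in learning arrays and 7.76 ± 0.12 in control arrays. The 4 CA1 markers above it also gave signal (7.40 ± 0.22 and 7.43 ± 0.42), and so did 2 dentate granule markers (6.68 ± 0.25 and 6.84 ± 0.41), and none of these 3 lists passed a two-sided exact permutation test (p = 0.157, 0.864 and 0.406). Choroid plexus markers above the cutoff, Ttr and Igfbp2, had a lower mean in learning arrays (5.84 ± 0.41 against 7.24 ± 0.85, exact p = 0.00175, adjusted p = 0.0140 over 16 array measures), as had 5 endothelial markers before adjustment (6.23 ± 0.14 against 6.37 ± 0.08, exact p = 0.0297, adjusted p = 0.142). By itself Ttr was called lower (log2 fold change -2.09, limma adjusted p = 0.0124) and Igfbp2 was not called (-0.70, limma adjusted p = 0.237). Of 8 astrocyte markers, Aqp4, Gja1 and Slc1a3 were called higher at dimmer probe sets (log2 fold changes 1.10, 0.74 and 0.41) and not at their brightest (-0.05, -0.01 and -0.06). The dimmest tested probe sets of Aqp4 (0.43, limma adjusted p = 0.0548) and Slc1a3 (0.10, limma adjusted p = 0.818) were not called. Learning replicate 6 and control replicates 5 and 2 had the lowest median correlations with the other arrays (0.989 to 0.992).

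Epha5 and the brighter of 2 Epha4 probe sets were called higher in the learning group, by 1.28-fold and 1.16-fold. Both calls lay close to the threshold, and the second Epha4 probe set was not called. Epha7 had a larger but more variable difference that did not pass, and Efnb1, the only ligand measured, had nearly the same mean in both groups. Of the 5 member probe sets above the cutoff 2 were called, both higher, against 3.35% of all tested probe sets called in either direction and 2.55% called higher. In the same 2 the groups did not overlap, which held for 2.10% of all tested probe sets. The 4 genes at their brightest probe sets had a median log2 fold change of 0.28, against -0.03 over 6836 genes. The genes were picked with these results known, so neither count is independent evidence of a direction.

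**Figure D1:**
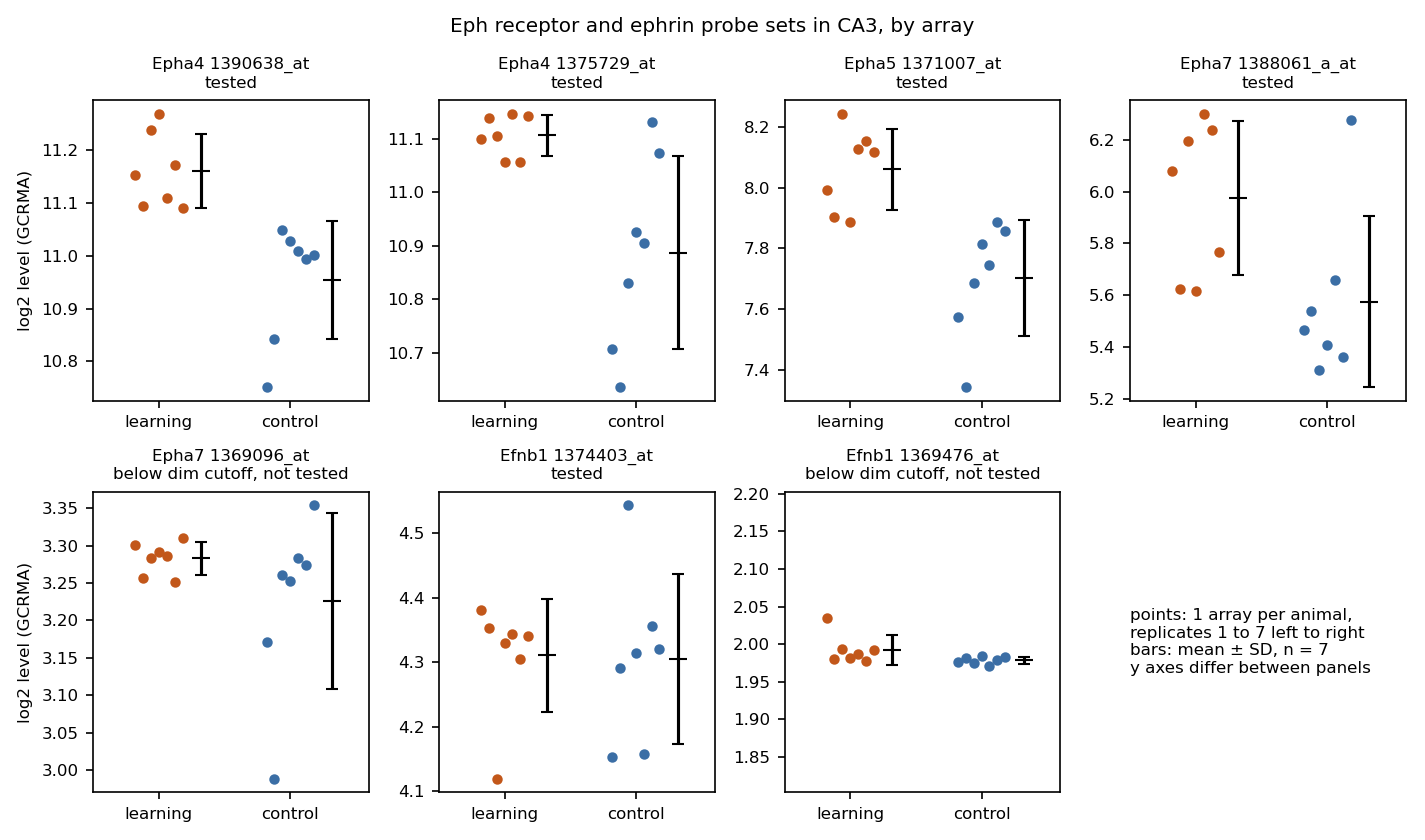
Log2 level of the 7 member probe sets in each array, learning animals on the left of each panel and control animals on the right, with mean ± SD (n = 7 each) beside the points. At Epha5 and at the brighter Epha4 probe set every learning array lies above every control array, and at Efnb1 the groups lie over each other.

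Epha5 encodes an EphA receptor found mainly in the nervous system, where it responds to A-type ephrins. At its single probe set (1371007_at) the learning arrays ran between 7.89 and 8.24 with a median of 8.12, and the control arrays between 7.34 and 7.89 with a median of 7.75. The groups did not overlap, but the lowest learning array and the highest control array were almost level, at 7.888 and 7.887. The means were 8.06 ± 0.13 and 7.70 ± 0.19 (SD, n = 7 each), a log2 fold change of 0.36 (SE 0.0827, 95% confidence interval 0.18 to 0.54, limma adjusted p = 0.0320). The lowest value of all was that of control replicate 2, at 7.34. In bulk tissue, more RNA per cell and more cells of the type that holds it cannot be told apart.

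The call of Epha5 lay close to the threshold and depended on which array was left out. It was kept in 8 of 14 such fits and lost without control replicate 1 (adjusted p = 0.0661) or 3 (0.0580) and without learning replicate 3 (0.0630), 5 (0.0541), 6 (0.0645) or 7 (0.0576), while the log2 fold change stayed between 0.30 and 0.39 whichever array was left out. Without the 3 arrays of lowest correlation it was 0.28 (adjusted p = 0.128). Array measures, some of which differed between the groups, were also entered as covariates. With the Gapdh 3'/5' ratio, whose log2 value averaged 0.45 ± 0.05 over the learning group and 0.51 ± 0.06 over the control group (two-sided exact permutation p = 0.0443, adjusted p = 0.142), the fold change of Epha5 was 0.38 and the adjusted p 0.112. With the balance between dimmer and brighter probe sets of 350 other genes, which averaged -3.25 ± 0.03 over the learning group and -3.42 ± 0.11 over the control group (exact permutation p = 5.83e-04, the smallest these assignments allow, adjusted p = 0.00932), it was 0.33 (SE 0.128, adjusted p = 0.497). Epha5 was not called in either fit. In the probe set balance the groups did not overlap, so balance and group go largely together. The SE of Epha5 grew from 0.0827 to 0.128 in that fit, and a call lost there cannot tell the balance from the group. What this balance reflects was not tested.

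Epha4, the receptor of both ephrin types, is found on dendritic spines of hippocampal neurons in mice. Its brighter probe set (1390638_at) gave values between 11.09 and 11.27, median 11.15, in learning arrays and between 10.75 and 11.05, median 11.001, in control arrays. Every learning array was above every control array. The means were 11.16 ± 0.07 and 10.95 ± 0.11 (SD, n = 7 each), a log2 fold change of 0.21 (SE 0.0506, 95% confidence interval 0.10 to 0.32, limma adjusted p = 0.0382). The lowest 2 control arrays, replicates 1 and 2, were also the lowest at Epha5.

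The second Epha4 probe set (1375729_at) had about the same fold change and was not called. Its learning arrays lay close together, between 11.06 and 11.15 with a median of 11.11, and its control arrays were spread between 10.64 and 11.13 with a median of 10.90. Control replicates 6 and 7 reached into the range of the learning arrays, so the groups overlapped. The means were 11.11 ± 0.04 and 10.89 ± 0.18, a log2 fold change of 0.22 (SE 0.0668, limma adjusted p = 0.0858), and without control replicate 6 it was called (0.26, adjusted p = 0.0330). The difference between the 2 probe sets within an array, dimmer minus brighter, was -0.06 ± 0.10 in learning and -0.07 ± 0.13 in control arrays (two-sided exact permutation p = 0.859). Only the brighter one passed the threshold.

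Like that of Epha5, the call of the brighter Epha4 probe set was narrow. It was lost without control replicate 1 (adjusted p = 0.0609) or 2 (0.0784) and without learning replicate 1 (0.0541), 3 (0.0734), 4 (0.0806), 5 (0.0524), 6 (0.0716) or 7 (0.0512), with log2 fold changes of 0.17 to 0.22 over all arrays left out. It was 0.19 without the 3 arrays of lowest correlation (adjusted p = 0.167), 0.22 in the fit with the Gapdh ratio (adjusted p = 0.128) and 0.23 with the probe set balance (adjusted p = 0.436).

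**Figure D2:**
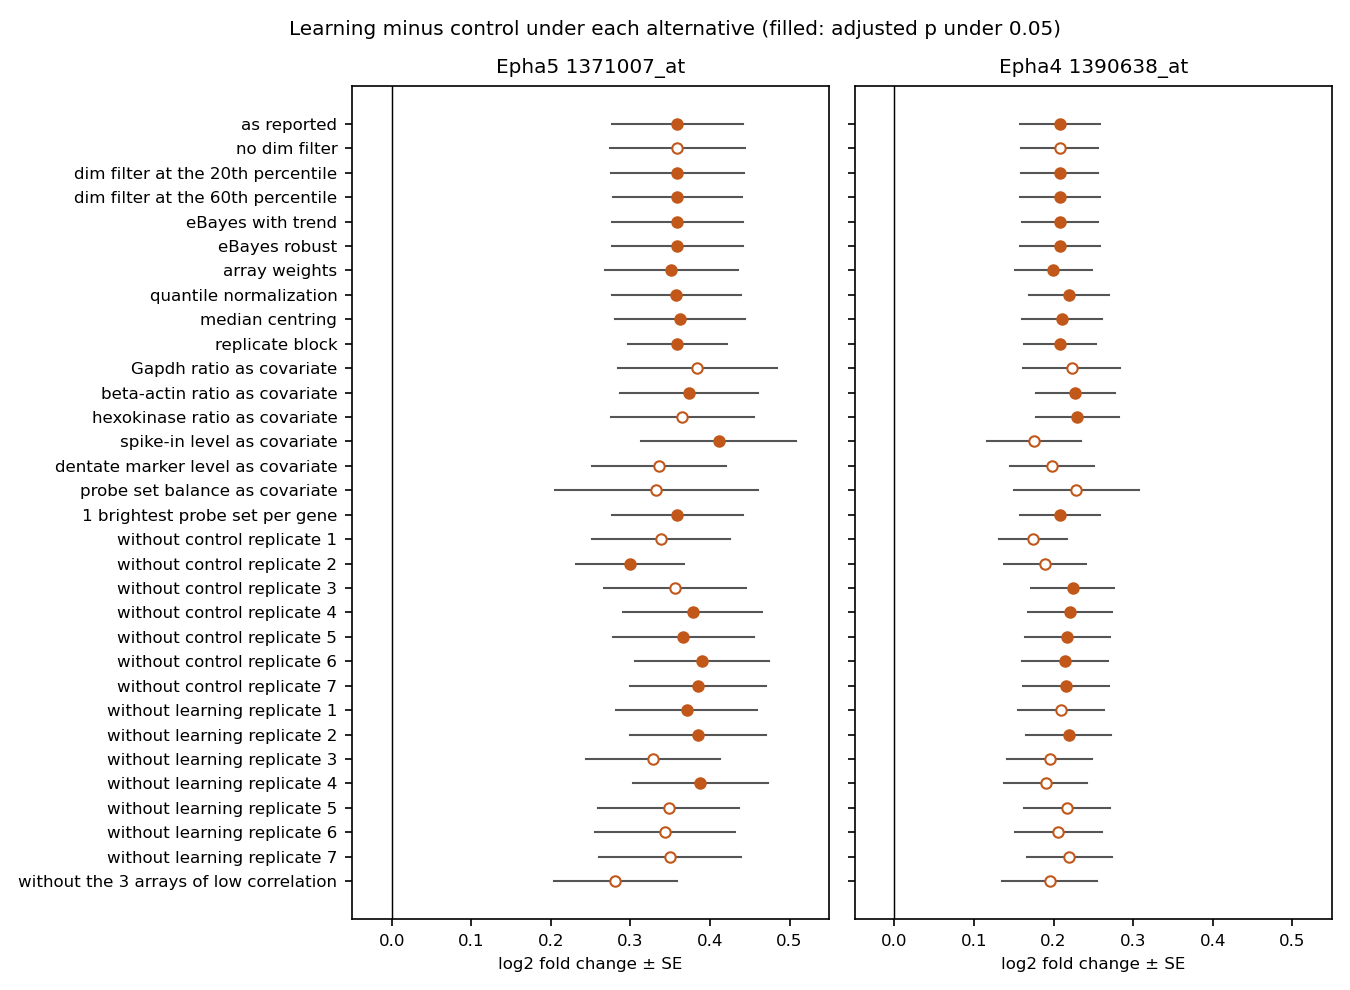
Log2 fold change, learning minus control, with its SE for Epha5 (left) and the brighter Epha4 probe set (right) under each way of processing, filled where the adjusted p was under 0.05. The fold changes stay above 0 throughout, between 0.28 and 0.41 for Epha5 and between 0.17 and 0.23 for Epha4, while 19 and 17 of 31 alternatives keep the call.

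Epha7, a further EphA receptor, is known in rodents also as shortened forms without the kinase domain. The brighter of its probe sets (1388061_a_at) carries a suffix that Affymetrix gives to sets matching several transcripts of 1 gene, so full-length and shortened forms cannot be separated here. Learning arrays ran between 5.62 and 6.30 with a median of 6.08, and control arrays between 5.31 and 6.28 with a median of 5.47. The learning arrays fell into 4 at 6.08 or above and 3 at 5.77 or below, and control replicate 7, at 6.28, stood above the other 6 control arrays, which reached 5.66. The means were 5.97 ± 0.30 and 5.58 ± 0.33, a log2 fold change of 0.40 (SE 0.152, 95% confidence interval 0.07 to 0.72, limma adjusted p = 0.159). Without control replicate 7 the difference was 0.52 and was called (adjusted p = 0.0325).

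The second Epha7 probe set (1369096_at) lay below the brightness cutoff and was not tested. It gave 3.25 to 3.31 in learning arrays and 2.99 to 3.35 in control arrays, ranges that overlap.

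Efnb1 encodes ephrin-B1, a membrane-spanning ligand that also signals back into the cell that carries it. At its brighter probe set (1374403_at) learning arrays ran between 4.12 and 4.38 with a median of 4.34, and control arrays between 4.15 and 4.54 with a median of 4.31. The groups overlapped throughout. The means were 4.31 ± 0.09 and 4.31 ± 0.13, a log2 fold change of 0.0052 (SE 0.0586, limma adjusted p = 0.972). Its 95% confidence interval, -0.12 to 0.13, holds changes of up to that size either way. Its mean log2 level of 4.31 lay close to the cutoff of 3.88, where these values compress differences. The dimmer Efnb1 probe set (1369476_at) was below the cutoff, at 1.977 to 2.035 in learning and 1.971 to 1.984 in control arrays, ranges that overlap.

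Promoters are shown for the measured members that the RefSeq promoter table (build GRCr8) holds, so that the sequence at the start of a called gene, Epha5, can be read beside those of Epha7 and Efnb1, which were not called. Each runs from 250 bases before to 50 bases after the annotated gene start, in the direction of the gene, at chr14:24007872-24008171 (plus strand), chr5:47771643-47771942 (plus strand) and chrX:68297279-68297578 (plus strand). Epha4 is missing from that table. Capitals mark motif matches on either strand.
Epha5: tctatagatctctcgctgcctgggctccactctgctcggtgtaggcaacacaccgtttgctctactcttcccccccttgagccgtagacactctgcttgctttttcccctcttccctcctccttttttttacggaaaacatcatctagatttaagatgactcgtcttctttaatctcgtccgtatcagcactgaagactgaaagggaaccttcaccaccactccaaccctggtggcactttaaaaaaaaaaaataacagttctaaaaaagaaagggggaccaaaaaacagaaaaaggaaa
Epha7: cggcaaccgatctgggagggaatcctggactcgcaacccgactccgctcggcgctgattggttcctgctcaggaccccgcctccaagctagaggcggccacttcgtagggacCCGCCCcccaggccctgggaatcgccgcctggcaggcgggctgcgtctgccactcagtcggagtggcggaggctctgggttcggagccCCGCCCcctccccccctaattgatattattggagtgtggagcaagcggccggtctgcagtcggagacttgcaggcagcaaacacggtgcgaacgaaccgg
Efnb1: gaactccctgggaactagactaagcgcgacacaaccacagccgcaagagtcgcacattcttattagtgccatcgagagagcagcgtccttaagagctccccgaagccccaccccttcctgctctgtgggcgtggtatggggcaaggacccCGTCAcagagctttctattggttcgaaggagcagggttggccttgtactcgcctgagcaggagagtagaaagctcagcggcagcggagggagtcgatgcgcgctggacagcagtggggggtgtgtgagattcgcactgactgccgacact
The letters searched were TGACGTCA (cAMP response element), its half-site TGACG, which lies within it, TGANTCA (AP-1), GCGNGGGCG (Egr) and GGGCGG (GC box). The Epha5 window held none of them. The Epha7 window held 2 GC boxes, and 33.1% of 33469 promoters of the same length held at least 1. The Efnb1 window held 1 half-site, and 21.2% of those promoters held at least 1. The full cAMP response element was in 1.83%, AP-1 in 7.33% and the Egr motif in 4.98% of those promoters. Bases G and C made up 44.7% of the Epha5 window, 66.7% of that of Epha7 and 59% of that of Efnb1, against a median of 51.7%. A match is a run of letters and not a shown binding site, and other transcripts of these genes start elsewhere.

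Across arrays the members did not rise and fall together in a way that could be shown. With group means removed, the brighter Epha4 probe set and Epha5 had a Pearson r of 0.49 over 14 arrays (permutation p = 0.115, adjusted p = 0.391) and a Spearman rho of 0.32 (permutation p = 0.287, adjusted p = 0.671). The relation rested on control replicates 1 and 2, since r was 0.14 without them. Epha5 and Epha7 had an r of 0.44 (permutation p = 0.144, adjusted p = 0.391), which was 0.46 without the 2 farthest arrays, and a rho of 0.43 (permutation p = 0.135, adjusted p = 0.671). The 2 Epha4 probe sets had an r of 0.47 (permutation p = 0.168, adjusted p = 0.391), which was -0.11 without control replicates 1 and 2, and a rho of 0.10 (permutation p = 0.750, adjusted p = 0.850). Their r was -0.77 within the learning arrays alone and 0.67 within the control arrays alone, values that were not tested. The 3 pairs named here were among 7 computed, and none passed.

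**Figure D3:**
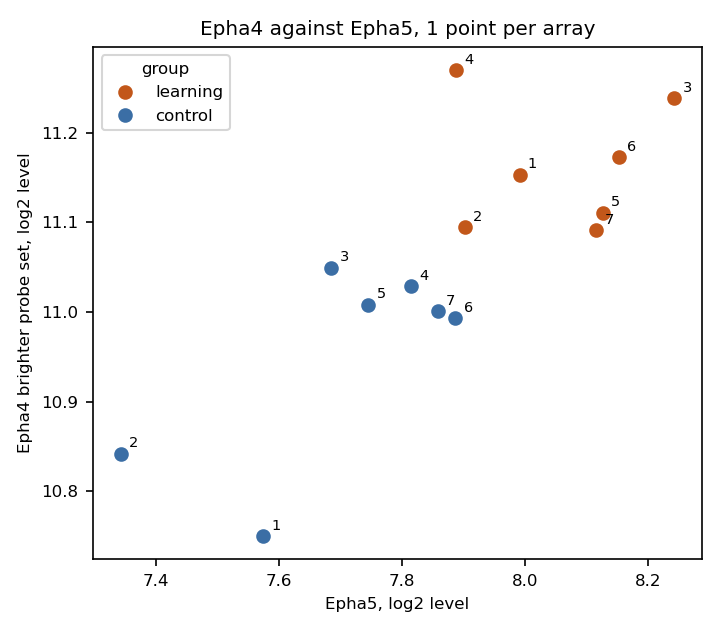
Log2 level of the brighter Epha4 probe set (vertical) against Epha5 (horizontal), 1 point per array with its replicate number. All 7 learning arrays lie above and to the right of the control arrays, and control replicates 1 and 2 are the lowest in both genes.

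Among genes outside the set, those whose deviations from the group means were most like those of the brighter Epha4 probe set were Cct6a, a chaperonin subunit (r = 0.86), Mettl5, an RNA methyltransferase (r = 0.84), and Sgip1, a protein of endocytosis (r = 0.83), over 14 arrays. For Epha5 they were Fry (r = 0.845), Ramac, a cofactor of mRNA capping (r = 0.84), and Srpk2, a kinase of splicing factors (r = 0.83). They are the highest of 7961 probe sets searched for each, so values of this size are picked as extremes and carry no test. Of these 6 genes Sgip1 (0.19, limma adjusted p = 0.0375) and Srpk2 (0.39, limma adjusted p = 0.0444) were called higher in the learning group, and the log2 fold changes of the other 4 lay between -0.02 and -0.0048.

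Of 14 further Eph receptors and ephrins, 7 were on the array with 9 probe sets, and 8 of these were below the cutoff. The dim ones were those of Epha2, Epha3, Epha8, Ephb4, Efna1 and Efna5, the last 2 being A-type ephrins. Their group means lay between 2.10 and 3.53 in learning and between 2.10 and 3.50 in control arrays. Efna1 and Efna5 were thus both below the cutoff. The listed A-type ephrins Efna2, Efna3 and Efna4 had no probe set naming the gene alone, so their levels are not known here. Epha10, a receptor that lacks kinase activity, was above the cutoff with 4.71 ± 0.22 and 4.63 ± 0.12, a log2 fold change of 0.09 (SE 0.0894, limma adjusted p = 0.636).

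Proteins that carry the signal from Eph receptors to the actin skeleton were tested at 19 of 26 listed genes, and 3 of these (15.8%) were called higher by limma at some probe set, against 2.91% of 6836 genes, and 0 lower. At the brightest probe sets 1 of the 19 was called higher, against 109 of all 6836 genes, and 5 (26.3%) had an unadjusted p under 0.05, against 18.6% of all genes. Rasa1, a Ras GTPase activator that binds activated Eph receptors, had 6.95 ± 0.10 in learning and 6.42 ± 0.24 in control arrays (log2 fold change 0.53, SE 0.091, limma adjusted p = 0.0062). It was the only one of the 3 called at its brightest probe set. Wasl, which starts actin branching, rose by 0.47 at its dimmer probe set (7.39 ± 0.21 against 6.92 ± 0.22, limma adjusted p = 0.0297) and had 0.07 at its brightest (adjusted p = 0.508). Of those that did not pass, Pak3, a kinase of the Rac pathway, had 0.23 (adjusted p = 0.0540), the Rap regulator Sipa1l1 0.30 (adjusted p = 0.0585) and the exchange factor Kalrn 0.51 (adjusted p = 0.0680). The median over the 19 genes at their brightest probe sets was 0.05, against -0.03 over all genes.

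Of 31 listed kinases, phosphatases and adaptors that bind the receptors or B-type ephrins, 22 were tested and 0 were called by limma at any probe set (4, or 18.2%, had an unadjusted p under 0.05 at their brightest probe set, against 18.6% of all genes), with 9 above 0 and 13 below 0 at the brightest and a median of -0.0061. Lowest in p were Fyn, a Src family kinase (0.23, adjusted p = 0.0904), Stat3 (0.43, adjusted p = 0.137), the adaptor Grb10 (-0.25, adjusted p = 0.141) and the endothelial phosphatase Ptprb (-0.20, adjusted p = 0.232), each at an unadjusted p under 0.05. The dimmer tested probe sets of Fyn and Stat3 had 0.05 (limma adjusted p = 0.631) and -0.08 (limma adjusted p = 0.452). Of 12 listed proteases and secretase subunits that cut these proteins 5 were tested, 0 were called and the median was 0.0028. Adam10, which sheds ephrins and Eph receptors from the membrane, had 5.33 ± 0.12 in learning and 5.06 ± 0.25 in control arrays (log2 fold change 0.27, SE 0.0973, limma adjusted p = 0.137). It alone of the 5 (20%) was at an unadjusted p under 0.05, a share close to the 18.6% of all genes. Of the others, the secretase subunits Ncstn and Aph1a had -0.13 (adjusted p = 0.280) and 0.05 (adjusted p = 0.881), and the sheddase Adam17 had -0.04 (adjusted p = 0.613). No fit took the choroid plexus or endothelial marker level as a covariate, and their part in these results was not tested. The array measures entered as covariates for the members were fitted to all tested probe sets, those of the signalling and protease lists included. With the probe set balance 0 probe sets were called over all genes, so no gene of these lists kept a call. The groups did not overlap in that balance, so this fit cannot tell the balance from the group. With the Gapdh ratio 39 were called, and which genes of these lists were among them is not given here.

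**Figure D4:**
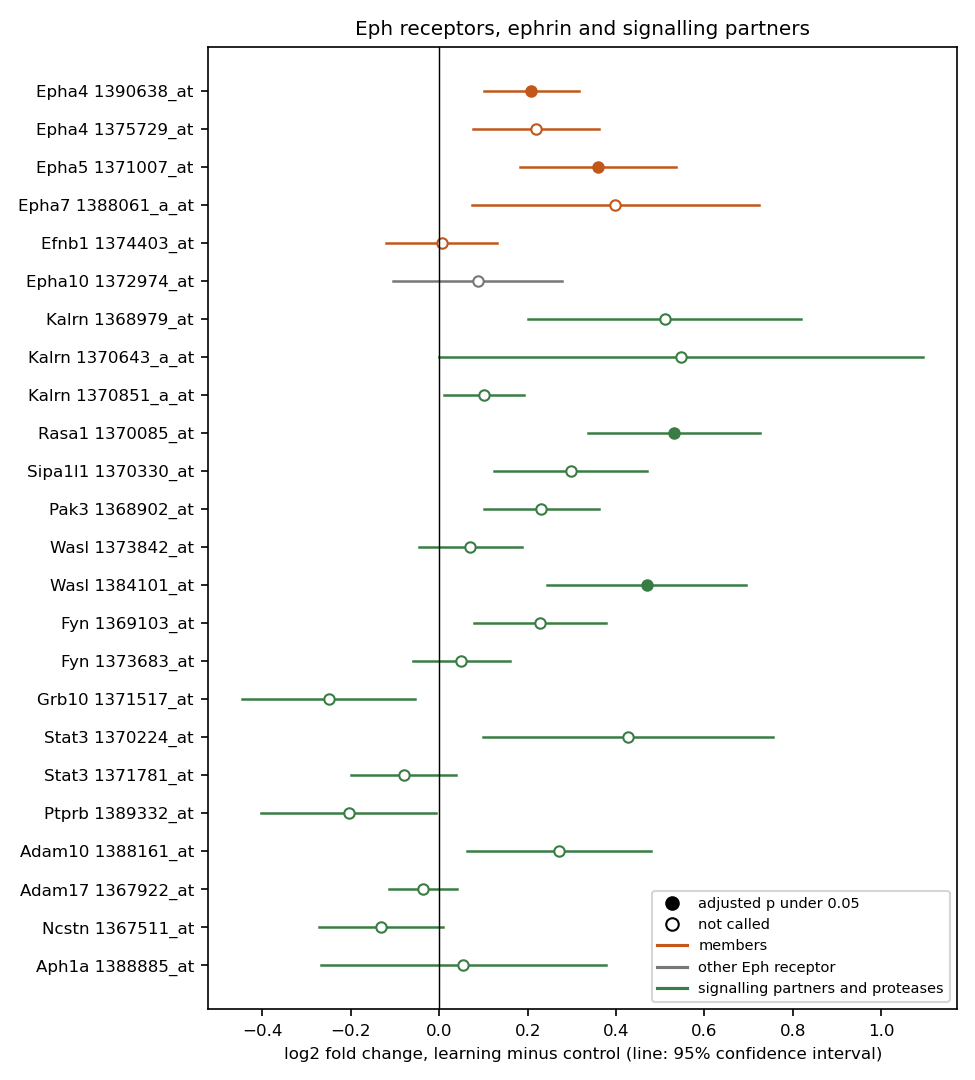
Log2 fold change, learning minus control, with its 95% confidence interval for the tested probe sets of the members, of Epha10 and of the named signalling partners and proteases, filled where the adjusted p was under 0.05. Among members Epha5 (0.36) and the brighter Epha4 probe set (0.21) are filled, Epha7 (0.40) has the widest interval and Efnb1 lies at 0.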

How the data were processed

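The authors deposited log2 expression levels of 14 Affymetrix RAE230A arrays, and the submitters' processing notes name GCRMA. That method estimates background from each probe's sequence and then normalizes and summarises probes into sets. No version was named, and that the scale is log2 was read from the values, which ran from -0.09 to 14.2 with column medians of 5.07 to 5.09. Differences near background are compressed. Samples were grouped by their titles, which call them biological replicates. Batches could not be examined, since scan dates and slides were not used here. The number of arrays limits the precision.

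Of 15923 probe sets the annotation named 1 gene for 12789 and several for 312. Symbols were updated by Entrez ID through the RefSeq table of GRCr8, where 12754 matched. The 57 control probe sets and 6346 with a mean below the 40th percentile were left out, and 9520 were fitted with limma 3.58.1 in R 4.3.3 (lmFit, eBayes), learning minus control without covariates, adjusted by Benjamini-Hochberg. "Called" means an adjusted p under 0.05. Single values per array were compared by two-sided exact permutation over 3432 assignments, and correlations by 100000 permutations within groups. On simulated data with 9520 probe sets, 200 of them changed, 77.2% of changes of 0.4 and 33.8% of changes of 0.2 on the log2 scale were recovered, with 4.93% false calls. The simulated noise was independent between probe sets. Shifts shared by many probe sets of an array were not simulated, so these rates need not hold for the real arrays.

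The members, gene lists and tests were chosen with earlier results of these data known. All member probe sets are named. From each of 4 pathway lists the called genes and the 4 lowest in p at their brightest probe set are named, except 1 called gene that is not reported here, and for called members the 3 genes of most similar pattern. For the marker lists the rule also names the brightest 2 genes, which are given here within list means, apart from those named in the results. The pair of Epha4 probe sets was added to the correlations after the data were seen. Of the 10 cell marker lists 5 are given by their mean levels. In the others, for CA2, interneurons, astrocytes, oligodendrocytes and microglia, the means differed by -0.13 to 0.01 on the log2 scale and none passed (exact p from 0.119 to 0.990).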

Additional observations from a re-analysis of the deposited data

Results flagged for a closer look

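Of 44 groups of 7 arrays examined, 7 held an array whose gap to its nearest neighbour took up more of the group's range than Dixon's 95% limit allows, where chance flags about 1 in 20 groups. Among the members, control replicate 7 was high at the brighter Epha7 probe set (6.28, next 5.66). Learning replicate 3 was low at the brighter Efnb1 probe set (4.12, next 4.31), and learning replicate 1 was high at the dimmer one (2.03, next 1.99), which lies below the brightness cutoff. Control replicate 5 was high in the Gapdh 3'/5' ratio (0.64, next 0.52) and in the hexokinase ratio (2.57, next 1.61) and low in the probe set balance (-3.65, next -3.44). Without it Epha5 had a log2 fold change of 0.37 (limma adjusted p = 0.0432) and the brighter Epha4 probe set 0.22 (adjusted p = 0.0463), so both calls were kept. Learning replicate 4 was high in the interneuron marker level (7.25, next 6.94).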

How the results depend on the processing

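Both calls among the members, at Epha5 and the brighter Epha4 probe set, were kept with a dim filter at the 20th or 60th percentile, array weights, a trended or robust variance prior, median centring, quantile normalization, 1 probe set per gene and the beta-actin ratio as covariate. Both fold changes stayed above 0 under all 31 alternatives. The count of called member probe sets was 0 without a dim filter, with the Gapdh ratio, the dentate marker level or the probe set balance as covariate, and without the 3 arrays of lowest correlation, an alternative chosen after seeing the data. It was 1 with the hexokinase ratio (Epha4) or the spike-in level (Epha5) as covariate, and 0 to 3 with each array left out. The cause was not tested. Over all genes the count of 319 was 158 without a filter, 39, 177, 169 and 163 with the covariates Gapdh ratio, hexokinase ratio, spike-in level and dentate marker level, 0 with the probe set balance in limma (853 at an unadjusted p under 0.05), 132 with 1 probe set per gene, 93 without the 3 arrays and 163 to 352 with each array left out. It was 1.5 times lower or more when any of control replicates 1 (163), 2 (166) and 3 (167) and learning replicates 3 (188), 4 (164), 6 (171) and 7 (188) was left out. The difference between the Epha4 probe sets ran from -0.01 to 0.05 with each array left out and did not pass in any.

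With the replicate number as a block 313 probe sets and the same 2 member probe sets were called. Same-numbered arrays of the 2 groups deviated from their group means with correlations of -0.16 to 0.13, and in 1 of 7 numbers the learning array correlated best with the control array of its own number, so the numbers do not show a pairing.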
